A study of Mus musculus with 10 samples.

Results

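The mRNAs of 9 genes were followed along their 5' UTR, ORF and 3' UTR in 10 libraries of CGR8 cells, a feeder-free line of mouse embryonic stem cells. They are Odc1, Amd1, Srm, Sms and Sat1 of polyamine metabolism, the antizymes Oaz1 and Oaz2, the antizyme inhibitor Azin1, and Peg10. Each was found by its gene symbol, and each was represented by 1 of the 14534 listed coding transcripts. Ribosome footprints were sequenced from control cells without inhibitor and from treated cells, with 2 libraries for each condition. Treated cells were given 1 µM DMDA-PatA or 2 µg/ml harringtonine for 10 min, or 0.2 mg/ml puromycin for 20 min. The paper states that DMSO was brought to the same amount in every sample. A further 2 libraries held fragments of the whole transcriptome of control cells. DMDA-PatA is an analog of pateamine A that acts on eIF4A, a helicase needed for initiation, harringtonine blocks ribosomes early in elongation, and puromycin ends nascent chains prematurely. The methods name the 2 libraries of a condition biological replicates, and the cells came from a single line.

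Polyamines are small cations made from ornithine. ODC1 makes putrescine, AMD1 supplies the aminopropyl donor, and SRM and SMS add it to make spermidine and spermine, while SAT1 acetylates polyamines for export or breakdown. Antizymes bind ODC1 and send it to the proteasome, and AZIN1, an inactive relative of ODC1, captures antizyme. Synthesis of antizyme needs the ribosome to slip forward by a base at the stop codon of a first short frame, which polyamines favour. Small upstream open reading frames (uORFs) also make the translation of several of these mRNAs depend on polyamines. Peg10 derives from a retrotransposon, and a backward slip joins its first frame to a longer second frame.

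The frameshift sites were read from the GRCm38 genome, because they decide which region a footprint on these mRNAs was counted in. The capitals mark the end of the first frame of the antizymes, with its stop codon TGA, and in Peg10 the slippery heptamer and the stop codon of the first frame.
Oaz1, chr10:80828277-80828306, + strand: gggcctcggtggtgcTCCTGAtgtccctca
Oaz2, chr9:65686254-65686283, + strand: gggcctctgtggtgcTCCTGAtgcccctca
Peg10, chr6:4755322-4755351, + strand: ccgccGGGAAACtccccggccccgctgTAG
In the annotation of both antizymes the base at 80828295 (Oaz1) or 65686272 (Oaz2), the T of this stop codon, is left out of the coding sequence. The listed ORF therefore joined 68 codons before the slip to 159 codons after it in Oaz1, and 32 codons to 157 codons in Oaz2. For Peg10 the listed ORF of 1128 nt was the first frame alone. The second frame ran 1886 nt past the stop codon, to position 4757237, so that it filled 36.5% of the 5166 nt listed as 3' UTR.

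Short uORFs are shown for the members whose 5' UTR holds one of at most 30 nt, with start and stop codons in capitals.
Amd1, chr10:40302155-40302175, - strand: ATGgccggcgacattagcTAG
Odc1, chr12:17544921-17544947, + strand: ATGacgacgtgctcggcgtataagTAG
Azin1, chr15:38514482-38514505, - strand: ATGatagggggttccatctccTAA
Azin1, chr15:38501507-38501536, - strand: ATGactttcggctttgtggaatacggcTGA
Sat1, chrX:155216271-155216285, - strand: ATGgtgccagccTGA
All 5 lie within 1 exon of the 5' UTR of the annotated transcript in GENCODE M21. Those of Azin1 belong to Azin1-201, whereas the transcript whose reads were counted is another isoform, which M21 types as nonsense-mediated decay. It spans chr15:38493512-38500364 there, and both uORFs lie outside that span. Odc1, Azin1-201 and Sat1 each also had a longer uORF, of 33 nt, 54 nt and 135 nt, and that of Sat1 overlapped its ORF. Sms had 4 upstream AUGs, and its shortest uORF held 16 codons. No AUG lay upstream of the ORF in Oaz1, Oaz2, Srm or Peg10. Only uORFs that start with AUG were searched for, so those with other start codons are not covered. For comparison, 51.1% of the coding transcripts whose listed ORF starts and ends on its codons in the same annotation had an upstream AUG. The listed ORF positions did not match that annotation for Odc1, Amd1 and Azin1. For Azin1 the listed ORF had 1071 nt against 1344 nt in Azin1-201, so its listed 5' UTR of 551 nt may hold coding sequence. This limit applies to every 5' UTR value, share and ratio of Azin1 given below.

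Footprints were recovered on the ORF of 7 members in the control. The values given are reads normalized by the authors to spike-in RNA, with means ± SD of 2 libraries, and levels per length are RPKM, reads per kb of ORF scaled to the total of ORF reads in the library. By length, Peg10 stood far above the rest in the control, at 1622 ± 42.8 footprints, followed by Srm at 188.6 ± 16.9, Azin1 at 48.0 ± 0.44, Odc1 at 20.5 ± 3.07, Sat1 at 14.2 ± 2.24, Oaz2 at 8.44 ± 0.66 and Oaz1 at 0.15 ± 0.016. The library ranges of neighbours in this order did not overlap, as in Odc1 at 18.3 to 22.7 and Sat1 at 12.6 to 15.8. The order was the same in the transcriptome, with 1358 ± 33.3 reads for Peg10, 84.3 ± 4.37 for Srm and 67.1 ± 10.2 for Azin1.

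Amd1 and Sms had no read on the ORF in any of the 10 libraries, in the transcriptome as in the footprints. Their 3' UTRs did hold transcriptome reads, 91 and 227 for Amd1 and 680 and 1677 for Sms. Oaz1 had 1 read on the ORF in each control library and 7 in each transcriptome library. The authors left out every read that matched the genome more than once. Of the 30 nt windows along the ORF, 0% occurred exactly once in GRCm38 for Amd1, 12.4% for Sms, 18.7% for Oaz1, 12.3% for Odc1, 40.3% for Oaz2, 50.6% for Sat1, 72.4% for Srm, 81.3% for Azin1 and 95.8% for Peg10. The windows of Odc1 and Amd1 followed the M21 coding sequence, and those of Azin1 the isoform Azin1-201, not the one counted. The coding sequence of Amd1 was 99.9% identical to that of Amd2. Windows absent from the genome, which can be those across an exon junction, do not count as occurring once. For the ORFs of Amd1 and Sms 0 windows were absent, so those across their junctions also occurred in the genome. A window found exactly once may therefore lie outside the gene. The part of repeated sequence in these levels was not tested. Amd1, Oaz1 and Sms did not reach the 10 reads in 2 libraries that the test of the ORF asked for, so 6 members were tested there.

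**Figure D1:**
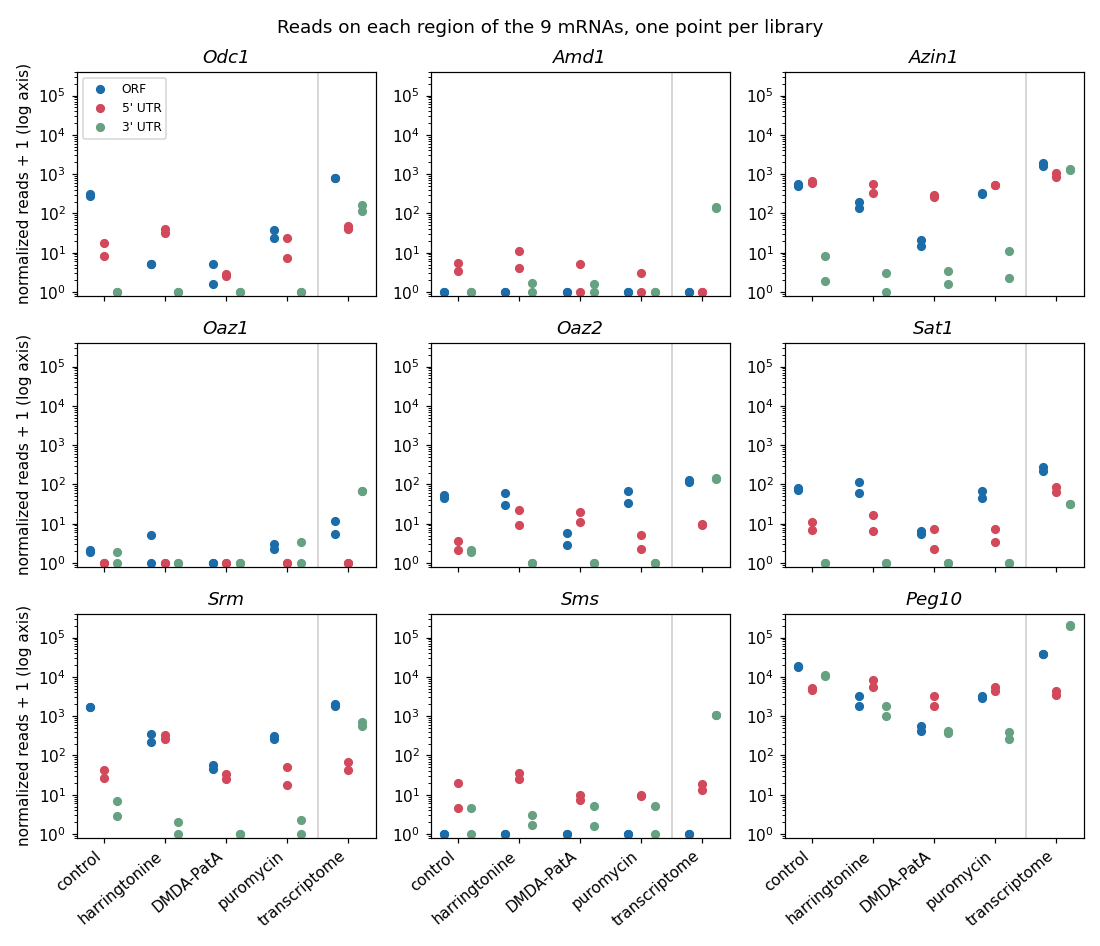
Normalized reads plus 1 (log axis) on the ORF, 5' UTR and 3' UTR of each of the 9 mRNAs, by condition, with 1 point per library. Peg10 alone has 3' UTR footprints far above the other mRNAs in the control, at 11416 and 10505, and Amd1 and Sms lie at 1, which stands for no read, on the ORF in all 10 libraries.

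DMDA-PatA lowered the ORF footprints of all 6 members tested, as it did for 99.8% of the 12298 coding transcripts tested (edgeR quasi-likelihood test on the recovered reads, Benjamini-Hochberg adjusted p of at most 0.05). The median log2 change was -5.04 over the 6 members and -4.33 over all transcripts. The members' count is at the background. The size of the change rests on the spike-in scale: with scaling to the total reads of the region the median of all transcripts was 0.01 instead, and Oaz2 and Sat1 then changed sign, to 0.46 and 0.48.

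Odc1, the first enzyme of the pathway, had the deepest loss of the 6. Its normalized control values of 272.3 and 301.9 became 0.63 and 4.06, which stand for 231 and 333 reads against 1 and 5. The log2 change was -6.97 ± 0.62 (SE, derived here as in all edgeR values from the change and its F statistic, adjusted p = 3.2e-27), and 1.52% of transcripts had a lower value. Srm went from 1718 and 1749 to 42.9 and 56.0, a log2 change of -5.13 ± 0.52 (adjusted p = 5.5e-22). Peg10 went from 19275 and 17936 to 412 and 569.8, a log2 change of -5.24 ± 0.55 (adjusted p = 5.7e-21).

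Azin1 went from 555.3 and 491.3 to 13.9 and 20.3, a log2 change of -4.94 ± 0.52 (adjusted p = 7.6e-21). Oaz2, the only antizyme tested, went from 54.2 and 43.5 to 1.89 and 4.87, a log2 change of -3.86 ± 0.59 (adjusted p = 1.1e-10). Sat1, the catabolic enzyme, went from 69.6 and 78.0 to 4.42 and 5.68, a log2 change of -3.85 ± 0.56 (adjusted p = 6.3e-12). In none of the 6 did the treated libraries overlap the control. Relative to the median of all transcripts, Odc1 lay 2.64 lower, and Oaz2 and Sat1 lay 0.47 and 0.48 higher, on the log2 scale.

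With harringtonine the members' values spread more widely. It lowered 4 of the 6, against 93.9% of all transcripts tested, and the median of all transcripts was -2.99. Odc1 fell to 4.06 and 4.20, a log2 change of -6.08 ± 0.59 (edgeR adjusted p = 5.2e-23), and 0.854% of transcripts had a lower value. Srm fell to 354.1 and 222.6 (log2 change -2.59 ± 0.46, adjusted p = 3.2e-08) and Peg10 to 3274 and 1788 (-2.88 ± 0.49, adjusted p = 8.6e-09), both near that median. Azin1 fell to 196.8 and 137.2, a log2 change of -1.65 ± 0.43 (adjusted p = 1.8e-04).

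Oaz2 and Sat1 were not called with harringtonine. Their listed ORFs had 567 and 513 nt, against a median of 1335 nt over the listed coding transcripts. For coding sequences shorter than these, the paper reports a reduced block by harringtonine and more so by puromycin. For DMDA-PatA it describes a similar block of short and of all coding sequences. The median block it gives for small ones is nonetheless lower than that for well expressed coding transcripts, at unlike read minimums. The part of ORF length in the values here was not tested. Oaz2 stood at 60.9 and 28.7 and Sat1 at 111.6 and 58.1, and both ranges span the control values. Their log2 changes were -0.14 ± 0.45 (edgeR adjusted p = 0.755) and 0.19 ± 0.44 (adjusted p = 0.671), and 98.0% and 98.8% of all transcripts had a lower value. Under scaling to total reads or by TMM, Azin1, Srm and Oaz2 turned to values above 0, and Azin1, Oaz2 and Sat1 were called higher. The median of all transcripts was then -0.28 and -0.12. The differences from the median hardly moved: Oaz2 lay 2.84 above it on the spike-in scale and 2.82 above it on total reads.

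With puromycin 3 of the 6 members fell, against 91.1% of all transcripts tested and a median of -2.50. They were Odc1 (37.2 and 22.4, log2 change -3.30 ± 0.49, edgeR adjusted p = 9.5e-11), Srm (256.4 and 312.1, -2.61 ± 0.46, adjusted p = 4.9e-08) and Peg10 (3245 and 2976, -2.58 ± 0.48, adjusted p = 2.4e-07). Azin1 stood at 306.1 and 322.1, below both control values, with a log2 change of -0.74 ± 0.43 that did not pass (adjusted p = 0.0909). It passed when harringtonine replicate 1 or 2 was left out of the common fit (adjusted p = 0.0143 and 0.0141) and when the spike-in factors of harringtonine and DMDA-PatA were swapped (0.00287). Oaz2 (68.2 and 33.6, 0.02 ± 0.47, adjusted p = 0.965) and Sat1 (68.2 and 44.8, -0.41 ± 0.46, adjusted p = 0.385) were not called either. Azin1, Oaz2 and Sat1 lay 1.76, 2.52 and 2.09 above the median of all transcripts on the log2 scale, and on total reads these distances were 1.77, 2.48 and 2.05, where all 3 changes were above 0 and called higher.

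**Figure D2:**
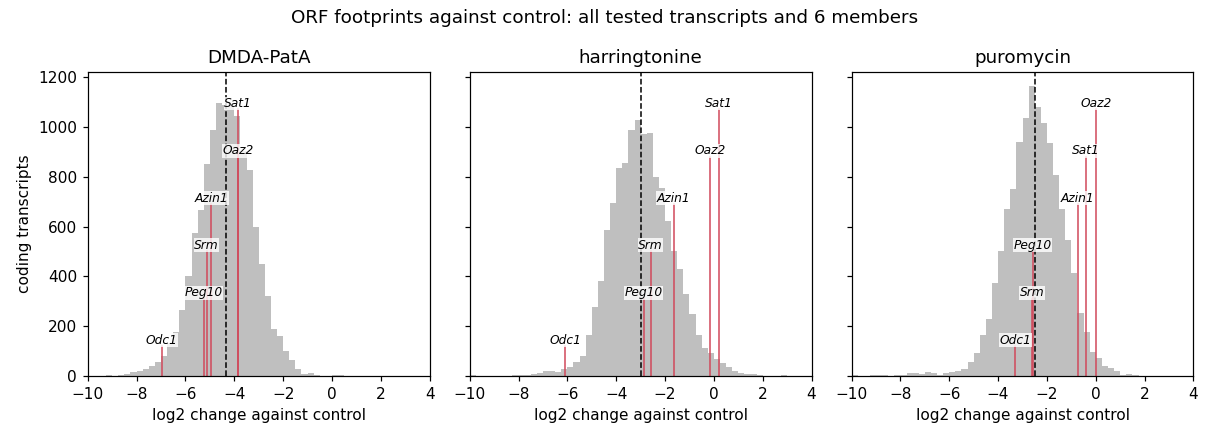
Histograms of the log2 change of ORF footprints against control for the 12298 transcripts tested, with the median as a dashed line and 6 members as red lines, whose heights only separate the names. Oaz2 and Sat1 lie at the upper end with harringtonine and puromycin but near the median with DMDA-PatA. Their listed ORFs have 567 nt (Oaz2) and 513 nt (Sat1), against a median of 1335 nt. On total reads the medians are 0.01, -0.28 and -0.06, and Oaz2 and Sat1 lie above 0 for all 3 drugs.

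The drugs were also set against each other. DMDA-PatA left fewer ORF footprints than puromycin on all 6 members, where 67.9% of all transcripts were lower. Against harringtonine 5 of 6 were lower, with 53% of all transcripts. The largest differences from harringtonine were those of Sat1 (log2 difference -4.04 ± 0.55, edgeR adjusted p = 2.6e-11) and Oaz2 (-3.72 ± 0.59, adjusted p = 1.0e-08). Odc1 did not pass (-0.90 ± 0.85, adjusted p = 0.365), with 6 reads left after DMDA-PatA and 10 after harringtonine.

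On the 5' UTR, changes in both directions were called with DMDA-PatA. Of 7 members tested, 2 fell and 1 rose with DMDA-PatA, where 29% of 6647 transcripts fell and 14.7% rose. Oaz2 rose from 1.18 and 2.72 (1 and 3 reads) to 10.1 and 18.7 (16 and 23 reads), a log2 change of 2.74 ± 0.85 (edgeR adjusted p = 0.00482). Its sign was the same under every scaling tried. Odc1 fell from 16.5 and 7.25 to 1.89 and 1.62 (-2.63 ± 0.80, adjusted p = 0.00408), and Azin1 from 577.7 and 649.9 to 253.8 and 300.3 (-1.15 ± 0.44, adjusted p = 0.0238). Without control replicate 1 none of the 3 passed (adjusted p = 0.0759, 0.132 and 0.0957), and Azin1 also failed without control replicate 2 (0.156) and without DMDA-PatA replicate 1 (0.0843).

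Peg10 stood at 5060 and 4560 footprints on the 5' UTR in the control and at 1842 and 3261 with DMDA-PatA. Its log2 change of -0.91 ± 0.42 did not pass (edgeR adjusted p = 0.0655), and it passed without DMDA-PatA replicate 2 (0.0139) or without harringtonine replicate 1 or 2 (0.0436 and 0.0451). It also passed with DESeq2 (0.0445) and with the swapped spike-in factors (0.0197). Srm (-0.22), Sat1 (-1.11) and Sms (-0.47) were not called.

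Harringtonine raised 4 of the 7 5' UTRs, against 35.1% of all transcripts. Srm, which has no upstream AUG, went from 25.9 and 40.8 to 267.9 and 328.3, and the log2 change of 3.14 ± 0.50 (edgeR adjusted p = 2.2e-08) passed with each library left out. Oaz2 reached 21.3 and 8.40 (2.76 ± 0.86, adjusted p = 0.00552), but not without control replicate 1 (0.0822) or harringtonine replicate 1 (0.160). Odc1 reached 39.6 and 31.5 (1.60 ± 0.60, adjusted p = 0.0223), but not without control replicate 2 (0.309) or harringtonine replicate 1 (0.121). Sms went from 18.9 and 3.63 to 35.5 and 23.8 (1.44 ± 0.61, adjusted p = 0.0466), and lost the call without control replicate 2 (0.568), harringtonine replicate 1 (0.257), or puromycin replicate 1 or 2 (0.0547 and 0.0561). With puromycin 0 of the 7 were called by edgeR, 0 had an unadjusted p below 0.05, and DESeq2 also called 0, while 0.963% of all transcripts were called in either direction. By TMM or on total reads Odc1 and Sms were not called with harringtonine, nor was Sms with the swapped factors (adjusted p = 0.0952), and by TMM Azin1 was not called with DMDA-PatA. Azin1 stood at -0.46 ± 0.43 with harringtonine (adjusted p = 0.403), and was called lower by TMM (-1.24, adjusted p = 6.9e-04), on total reads (-1.14, 0.00119) and with the swapped factors (-0.74, 0.0452).

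The division of footprints between regions also changed. The share of footprints on the 5' UTR of Azin1 was 53.8% ± 4.4 in the control (SD, n = 2), 93.8% ± 1.1 after DMDA-PatA, 72.4% ± 1.8 after harringtonine and 62.2% ± 0.79 after puromycin. DMDA-PatA took Oaz2 from 3.93% ± 2.6 to 81.8% ± 3.5 and Peg10 from 14.0% ± 0.24 to 73.6% ± 4.7. Harringtonine took Odc1 from 4.03% ± 2.4 to 89.5% ± 1.7. Over all coding transcripts the share was 4.11% ± 0.19 in the control, 30.4% ± 2.6 with harringtonine, 37.5% ± 0.32 with DMDA-PatA and 18.8% ± 1.9 with puromycin. Of the 30 nt windows of Odc1, 57.6% on the 5' UTR but 12.3% on the ORF occurred once in the genome. For Oaz2 these were 47.3% and 40.3%, and for Peg10 92.1% and 95.8%. The part of this in the shares was not tested. In the control the share of Azin1 was the 124th highest of 8511 transcripts with at least 100 reads in each control library. Because its listed 5' UTR may hold coding sequence, the share and rank of Azin1 need not describe a true 5' UTR.

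The 5' UTR to ORF ratio was tested within each library, so that no scale between libraries enters. With DMDA-PatA it rose for all 6 members tested (edgeR, 93.5% of 6497 transcripts rose). The rise in log2 units ranged from 2.63 ± 0.80 for Sat1 (adjusted p = 0.0041) to 6.47 ± 0.75 for Oaz2 (adjusted p = 6.7e-08), around a median of 4.34 over all transcripts. Odc1 did not pass without DMDA-PatA replicate 1 (adjusted p = 0.0565), nor Sat1 without DMDA-PatA replicate 2 (0.322). With harringtonine 5 of 6 rose (95.4% of all), from 1.17 ± 0.34 for Azin1 to 7.67 ± 0.63 for Odc1, while Sat1 stood at 0.07 ± 0.39 (adjusted p = 0.859). With puromycin Odc1, Srm and Peg10 rose, 3 of 6 (78.5% of all), by 3.43 ± 0.71, 2.56 ± 0.51 and 2.61 ± 0.33. Azin1 (0.51 ± 0.34, adjusted p = 0.166), Oaz2 (0.07 ± 0.34, adjusted p = 0.854) and Sat1 (-0.61 ± 0.87, adjusted p = 0.519) did not pass.

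**Figure D3:**
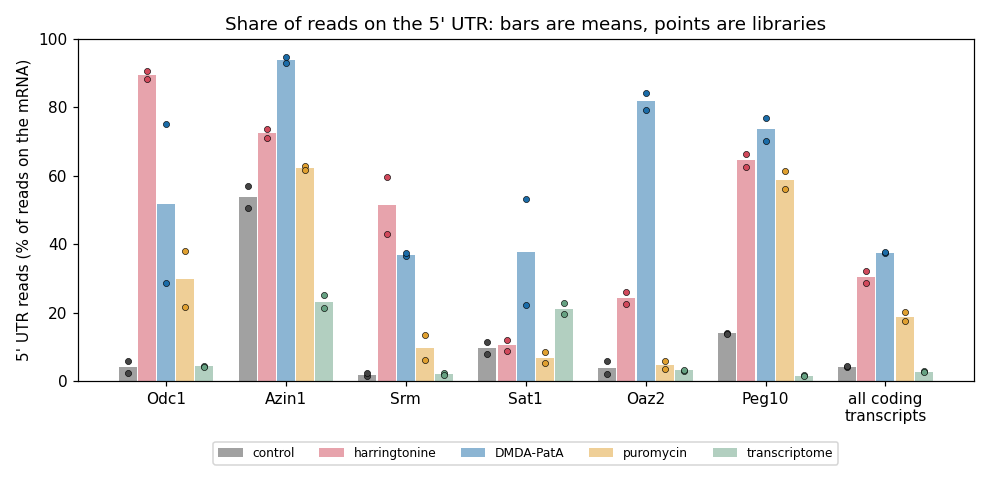
Percentage of the reads on each mRNA that lay on its 5' UTR, by condition, with means of 2 libraries as bars and the libraries as points. Azin1 starts at 53.8% in the control, and Sat1 with harringtonine stays at 10.4%, while all coding transcripts rise from 4.11% to 30.4%. The listed 5' UTR of Azin1 may hold coding sequence.

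In control cells footprints were compared with RNA reads. Srm had the highest translation efficiency of the members, its share of ORF footprints divided by its share of ORF transcriptome reads. It was 2.02 in replicate 1 and 2.47 in replicate 2, and 91.5% of 12655 transcripts had a lower mean. In the test 2 of 6 members were higher and 1 was lower, where 29.9% of 13717 transcripts were higher and 41.2% lower. Srm was higher (log2 difference 1.16 ± 0.11, edgeR adjusted p = 1.8e-07), as was Peg10 (0.26 ± 0.09, adjusted p = 0.0193), but Peg10 not without control replicate 2 (0.0998). Azin1 was lower (-0.49 ± 0.13, adjusted p = 0.00301), but not without transcriptome replicate 2 (0.0599). Sat1 stood at -0.45 ± 0.19 (adjusted p = 0.0503) and passed without control replicate 2 (0.0296) or transcriptome replicate 1 (0.0285). Odc1 (-0.17 ± 0.13, adjusted p = 0.247) and Oaz2 (-0.01 ± 0.22, adjusted p = 0.959) were not called.

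Control footprints lay on the 5' UTR more often, relative to the ORF, than RNA reads did for Peg10 (log2 difference 1.38 ± 0.27, edgeR adjusted p = 8.7e-04) and Azin1 (1.16 ± 0.28, adjusted p = 0.00354), and less often for Sat1 (-1.47 ± 0.44, adjusted p = 0.0113). That is 2 higher and 1 lower of 5 members tested, where 24.8% of 7141 transcripts were higher and 32% lower. Without transcriptome replicate 2, Azin1 (adjusted p = 0.0544) and Sat1 (0.0851) lost the call.

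Peg10 had by far the most 3' UTR footprints of the members. Its 3' UTR held 9684 and 11589 control footprints, the highest number of any coding transcript in both libraries, and 13.0% and 15.8% of all 3' UTR footprints of coding transcripts. It also ranked 1 in both transcriptome libraries. The 3' UTR took 31.9% ± 0.07 (SD, n = 2) of the footprints of Peg10, against 0.719% ± 0.088 over all coding transcripts, and this share was the 53rd highest of 8511. Odc1, Amd1 and Sat1 had no 3' UTR footprint in the control, and Azin1, Srm, Oaz1, Oaz2 and Sms had 1 to 7 in both libraries together. Transcriptome reads on these 3' UTRs ran from 20 to 1993 per library. Of the 30 nt windows of the 3' UTR, 97.0% occurred once in the genome for Peg10, against 8.40% for Amd1, 10.1% for Odc1, 14.2% for Oaz1, 18.0% for Oaz2, 19.2% for Sat1, 67.8% for Srm, 77.8% for Sms and 99.6% for Azin1, and the part of this in the counts was not tested. The Azin1 value is again that of Azin1-201, not of the isoform counted.

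Relative to the ORF, control footprints were rarer on the 3' UTR than RNA reads for all 6 members tested, where 98.3% of 11414 transcripts were lower (edgeR). The log2 difference of Peg10 was -3.13 ± 0.16, and that of the median transcript was -7.31. Azin1 (-6.72 ± 0.34), Srm (-7.28 ± 0.33) and Oaz2 (-5.71 ± 0.66) lay nearer to it, and 96.0% of transcripts had a lower value than Peg10. Without either transcriptome replicate only Peg10 had enough 3' UTR reads for this test, and it passed.

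If all 3' UTR footprints of Peg10 lay on the second frame, their density would be 35.2% ± 0.28 (SD, n = 2) of that on the first frame in the control. Where they lay within the 3' UTR was not analysed here. By the same measure the density was 33.8% ± 0.26 with harringtonine, 48.3% ± 7.5 with DMDA-PatA and 6.37% ± 2.4 with puromycin. In the transcriptome the whole 3' UTR had 112.5% ± 4.8 of the read density of the ORF.

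All 3 drugs lowered the 3' UTR footprints of Peg10. They went from 11416 and 10505 normalized footprints to 369.3 and 409.1 with DMDA-PatA (log2 change -4.82 ± 0.71, edgeR adjusted p = 2.1e-10, where 35.1% of 1303 transcripts fell). With harringtonine they reached 1842 and 1016 (-2.94 ± 0.65, adjusted p = 5.2e-05, 21.6% fell), and with puromycin 254.4 and 400.4 (-5.06 ± 0.72, adjusted p = 1.0e-10, 16.7% fell). The median transcript moved by -1.01, -0.02 and -0.45 in the same tests.

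In a comparison added after these values were seen, the 3' UTR to ORF ratio of Peg10 fell by 2.51 on the log2 scale with puromycin (SE 0.39, edgeR adjusted p = 2.9e-06), where 10.2% of 1283 transcripts fell. With DMDA-PatA it changed by 0.45 ± 0.38 (adjusted p = 0.289) and with harringtonine by -0.06 ± 0.37 (adjusted p = 0.89), and neither was called. Of all transcripts 75.4% and 80.6% were called in either direction in these 2 tests. The median transcript gained 1.75 with puromycin, 3.31 with DMDA-PatA and 2.82 with harringtonine in this ratio.

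**Figure D4:**
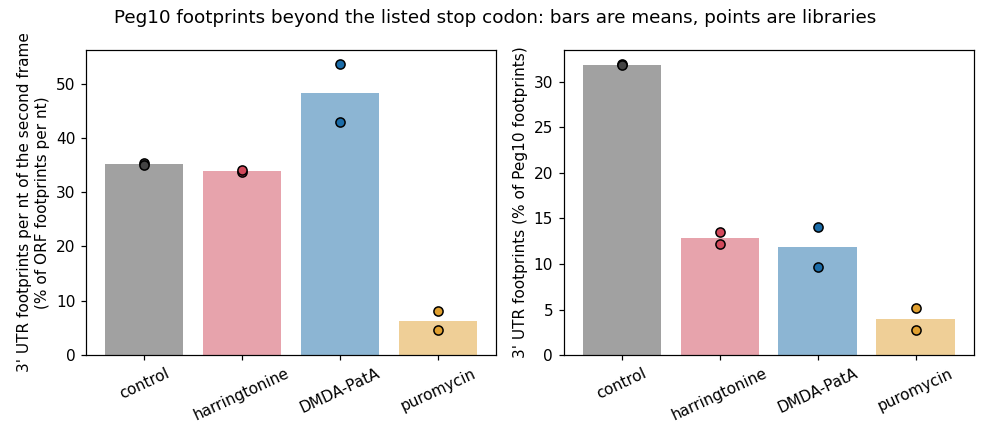
Left, 3' UTR footprints of Peg10 per nt of its second frame as a percentage of ORF footprints per nt, if all lay on that frame; right, the percentage of all Peg10 footprints that lay on the 3' UTR, with means of 2 libraries as bars and the libraries as points. On the left puromycin stands at 6.37% beside 35.2% in the control and 33.8% with harringtonine.

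Other genes of polyamine and methionine salvage metabolism were taken from a list of 26, of which 23 were listed and 20 passed the minimum on the ORF. DMDA-PatA lowered all 20, harringtonine 18 and puromycin 18, with medians of -4.38, -2.56 and -2.13. Over all transcripts 99.8%, 93.9% and 91.1% were lower, with medians of -4.33, -2.99 and -2.50, so the list's counts are near the background. The lowest with DMDA-PatA were Enoph1 of the methionine salvage pathway (log2 change -5.61 ± 0.53) and the lysosomal polyamine exporter Atp13a2 (-5.56 ± 0.59). The highest were Adi1 (-3.03 ± 0.46) and Mri1 (-3.29 ± 0.46), both of methionine salvage. Enoph1 went from 916.0 and 923.7 normalized footprints to 16.4 and 21.1, and Adi1 from 721.5 and 576.5 to 60.6 and 99.0. In translation efficiency 13 of 21 tested were higher and 3 lower, where 29.9% of all transcripts were higher and 41.2% lower.

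The coding transcript nearest to each member in the ORF values of the 6 drug libraries was found by distance over 6 log2 ratios to the control mean, among 8202 with at least 100 control reads per library. It was Mettl4 for Odc1 (distance 0.952, median of all 5.27), Ddit4 for Azin1 (0.478, median 3.94), Serbp1 for Srm (0.301, median 2.48) and Gfpt1 for Peg10 (0.186, median 2.45). Odc1 thus had the most distant nearest transcript of these 4. Its ORF held only 1 and 5 reads with DMDA-PatA and 4 and 6 with harringtonine. The part of counting error in this distance was not tested.

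All 10 embryonic stem cell markers had transcriptome reads, at an RPKM of 29.4 to 413.5, with sums of 1740 and 1640 in the 2 libraries. Of 18 markers of endoderm, fibroblasts, neural cells and trophoblast, 15 were listed and none was at 0. They ran from 0.184 to 1226 with a median of 9.20 and sums of 1576 and 1647, of which the fibroblast marker Col1a1 was 1226 and Col1a2 272.9. The other fibroblast markers were far lower, with Col6a3 at 9.20, Twist2 at 15.1 and Thy1 at 9.95. The part of such cells in the values of the members was not tested. Fewer cells of a type and less RNA per cell cannot be told apart in these bulk libraries. Coding transcripts had 1027314 to 11161453 footprints per library, and 25508180 to 59271162 transcriptome reads.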

How the data were processed

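The authors aligned SOLiD reads to the mouse genome mm10 with LifeScope, dropped reads with several genomic matches, and counted P-site positions per 5' UTR, ORF and 3' UTR of 1 transcript per gene, without the last bases of the 5' UTR. The submitters' processing notes name Picard 1.38. The deposited signal values are reads scaled to equal spike-in reads (footprints) or between replicates (transcriptome). Divided by what a single read is worth, 100% of them came out whole (tolerance 0.01 reads), which gave back the counts. Which spike-in factor belongs to DMDA-PatA and which to harringtonine was not settled from the sources, and the deposited values were used as they stand. Symbols came from GENCODE M21, which paired 14403 transcripts with a symbol, and the genome was GRCm38.

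Groups followed the labels. The counts were tested with edgeR 4.0.16 (R 4.3.3, limma 3.58.1) in one fit of the 4 footprint conditions with the spike-in scale as offset, with a minimum of 10 reads in 2 or more libraries, at an adjusted p of 0.05. Ratios of regions were tested with the library as a block. Alternatives were DESeq2 1.42.0, other scalings and minimums, limma on log2 values with a pseudocount of 1 or, for ratios, 0.5 reads, a replicate block, and leaving out each library. The fits were tested on simulated data. Read numbers cover counting error only, and 2 libraries per condition limit the precision. Python 3.11.15, numpy 2.4.6, pandas 2.3.3 and matplotlib 3.10.9 were used.

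The members, the pathway list and the markers were chosen with earlier results of these data known. Named genes were the 9 members, the 2 lowest and 2 highest pathway genes with DMDA-PatA, and the nearest transcript to each member with at least 100 control reads.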

Additional observations from a re-analysis of the deposited data

How the results depend on the processing

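The size of each drug effect rests on the spike-in scale. On total reads of the region, 3 members were called lower on the ORF after DMDA-PatA, and harringtonine and puromycin lowered 1 each, and by TMM the harringtonine and puromycin counts were also 1. On the ORF with DMDA-PatA, Oaz2 and Sat1 stood at 0.34 and 0.36 by TMM and 0.46 and 0.48 on total reads. With harringtonine, Azin1, Srm and Oaz2 stood at 1.24, 0.28 and 2.70 by TMM and 1.08, 0.11 and 2.53 on total reads. With puromycin, Azin1 and Sat1 stood at 1.73 and 2.01 by TMM and 1.71 and 1.99 on total reads. Against harringtonine, Odc1 with DMDA-PatA stood at 0.37 by TMM and 0.65 on total reads. On the 5' UTR with DMDA-PatA, Srm and Sms stood at 0.36 and 0.20 by TMM and 0.28 and 0.12 on total reads, and with harringtonine Peg10 and Sat1 at -0.21 and -0.48 by TMM and -0.12 and -0.37 on total reads.

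Values near 0 also changed sign. When the spike-in factors of harringtonine and DMDA-PatA were swapped, Sat1 on the ORF with harringtonine was -0.11, Oaz2 on the ORF with puromycin -0.0021, Srm on the 5' UTR with DMDA-PatA 0.0036 and Sat1 on the 5' UTR with harringtonine -0.0030. This swap also changed 4 calls. Azin1 on the ORF with puromycin (adjusted p = 0.00287), Peg10 on the 5' UTR with DMDA-PatA (0.0197) and Azin1 on the 5' UTR with harringtonine (0.0452) became lower, and Sms on the 5' UTR with harringtonine lost its call (0.0952). For Oaz2 on the ORF with puromycin limma gave -0.019. Its translation efficiency was 9.5e-05 with DESeq2, 0.13 by TMM, 0.16 with DESeq2 size factors and 0.014 with limma.

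Leaving out 1 library at a time gave ranges on both sides of 0. On the ORF they were -0.76 to 0.32 for Oaz2 and -0.35 to 0.59 for Sat1 with harringtonine, and -0.54 to 0.49 for Oaz2 with puromycin. On the 5' UTR with DMDA-PatA, Srm ran from -0.50 to 0.15 and Sms from -1.27 to 1.07. In the 5' UTR to ORF ratio Oaz2 with puromycin ran from -0.46 to 0.78, including -0.31, and Odc1 against the transcriptome from -1.09 to 0.24, and Sat1 with harringtonine reached -0.16. Oaz2 in translation efficiency was 0.067 and 0.14. The numbers of members called ran from 0 to 4 on the 5' UTR with DMDA-PatA, from 1 to 4 with harringtonine, from 1 to 3 for the 5' UTR and from 1 to 6 for the 3' UTR to ORF ratio against the transcriptome. In the last, 5 members lacked reads for the test without a transcriptome library. DESeq2 called 2 members on the 5' UTR with harringtonine. At a minimum of 5 reads the 3' UTR to ORF ratio with DMDA-PatA called 1 member, Azin1, which had not been tested. The causes of the other changes were not tested.

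Same-numbered libraries deviated together with correlations of 0.00032 to 0.081, so the numbers were not taken as pairs. With the replicate block the counts were the same but for translation efficiency, with 4 members called in place of 3 through Sat1 (-0.44, adjusted p = 0.0343), and for the 5' UTR to ORF ratio against the transcriptome, with 2 in place of 3 through Azin1 (1.16, adjusted p = 0.0514). For ratios the fit with the block also used limma in place of edgeR, so the effects of block and tool cannot be told apart. Oaz2 on the ORF with puromycin was -0.012 in the block.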
